A study of Homo sapiens with 9 samples.

Results

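Oxidative phosphorylation was followed through 114 genes of the 52402 gene symbols counted in these cells: 101 nuclear genes and the 13 protein transcripts of mitochondrial DNA. Beside 76 subunits, the 101 hold 10 isoforms, 8 NDUFAF assembly factors, and some antisense, readthrough and other genes. The nuclear genes were taken by symbol, as those beginning NDUFA, NDUFB, NDUFC, NDUFS, NDUFV, UQCR, ATP5 or COX4 to COX8, with SDHA to SDHD and CYC1. Of 269 symbols found in this way, 168 were pseudogenes and were left out; they held counts equal to 0.0738% of those of the nuclear genes. The cells were HaCaT, an immortalised line of human keratinocytes, in DMEM with serum. They were sampled after 24 h in medium alone (control), with fragmented polystyrene at 25 µg/ml (fPS 25) or with 100 µg/ml (fPS 100). Each of these 3 groups had 3 libraries, made from poly(A)-selected RNA. All libraries come from this 1 line. Whether a group's libraries come from separate cultures is not stated in the labels, and the p-values therefore speak of the spread among these libraries, which may be technical.

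Oxidative phosphorylation passes electrons from nutrients along complexes I to IV of the inner mitochondrial membrane, and complex V uses the proton gradient so formed to make ATP. Complex II is encoded by nuclear genes alone, while the other complexes combine subunits from the nucleus with subunits translated inside the mitochondrion. In skin, keratinocyte mitochondria supply ATP and are also a source of reactive oxygen species.

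The libraries held 16.4M to 29.3M counts, and levels are given as CPM, the counts of a library scaled by its total and its TMM factor. Of 14637 genes tested, 30.0% were called at fPS 100 against control, meaning an adjusted p under 0.05 in the quasi-likelihood test of edgeR, 5.25% at fPS 25 against control and 13.7% between the concentrations. Nuclear ribosomal RNA took 6.06% to 8.48% of counts in the fPS 100 libraries and exactly 0 counts in the 6 other libraries. Whether the groups were counted or filtered in the same way is not stated, and such a difference cannot be told apart from fPS 100 in any comparison with that group. With these RNAs removed, 10 nuclear and 0 mitochondrial genes were called at fPS 100, with medians of −0.05 and 0.34, as with them. Replicate 3 of fPS 100 stood apart from the others of its group in its mitochondrial transcripts. Keratinocyte markers summed to 5572 to 6057 CPM in control, 4728 to 5008 CPM in fPS 25 and 5270.4 to 8745 CPM in fPS 100, the last in replicate 3. Marker sums of fibroblasts, melanocytes, immune and endothelial cells were 1.22 to 19.8 CPM, with 2 tested genes in each of these lists. LUM, of fibroblasts, was at 0 in every library and PTPRC, of leukocytes, at 0 to 0.0585 CPM. Not all members of these lists were that low: COL1A1 was at 9.61 to 16.6 CPM and CD68 at 7.75 to 19.5 CPM. As set out below, a count of 0 need not mean absence. At fPS 100 against control, 4 of 10 keratinocyte markers were called, KRT17 (1.06), TP63 (0.42) and PERP (0.31) up and KRT5 (−0.62; adjusted p = 0.00122) down, and of the other lists CD68 and CDH5 rose and COL3A1 fell. The part of the marker differences in the results below was not tested.

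Most nuclear genes of oxidative phosphorylation were not called in any comparison. At fPS 100, 5 of 91 tested nuclear genes rose and 5 fell against control, where 15.2% of all genes tested rose and 14.8% fell. Of the 75 tested subunits without isoforms, 3 rose and 2 fell, or 6.67% called. The median log2 fold change of the 91 was −0.05, and that of all genes was 0.01. The sign of the former turned with the libraries used, from −0.14 without control replicate 3 to 0.05 without control replicate 2. In size, without sign, the median was 0.17 for the nuclear genes and 0.28 for all genes. Changes beyond 0.5 on the log2 scale were estimated for 6.59% of the nuclear genes and 28.4% of all genes. Estimates vary more at low counts and all genes were not matched to these in level, so the sizes are not like with like. At fPS 25 against control 2 of 91 nuclear genes were called, NDUFA5 up and NDUFS3 down, where 5.25% of all genes were called in either direction. Between fPS 100 and fPS 25 none of the 91 rose by edgeR, with 6.31% of all genes rising, and 3 fell, with 7.43% of all genes falling. At an unadjusted p under 0.05, 10 of the 91 stood out between the concentrations in either direction, and limma-voom and DESeq2 also called 0 rises there. The count of 10 calls at fPS 100 was 4 without fPS 100 replicate 2, 6 without control replicate 1 and 20 without fPS 100 replicate 3. The count of 2 at fPS 25 was 0 without control replicate 2, fPS 25 replicate 1 or fPS 25 replicate 2, 1 without any other control or fPS 25 library, and 4 without fPS 100 replicate 3. The 3 between the concentrations were 1 without control replicate 1, fPS 25 replicate 1 or fPS 25 replicate 3. The controls are shared by the comparisons of both concentrations. The 10 nuclear genes that were not tested, for low counts, were ATP5L2, COX4I2, COX6A2, COX7A1, COX7B2, COX8C, NDUFA3, NDUFA6-AS1, NDUFV2-AS1 and UQCRHL. RNA of fewer cells and less RNA per cell cannot be told apart in such bulk samples.

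**Figure D1:**
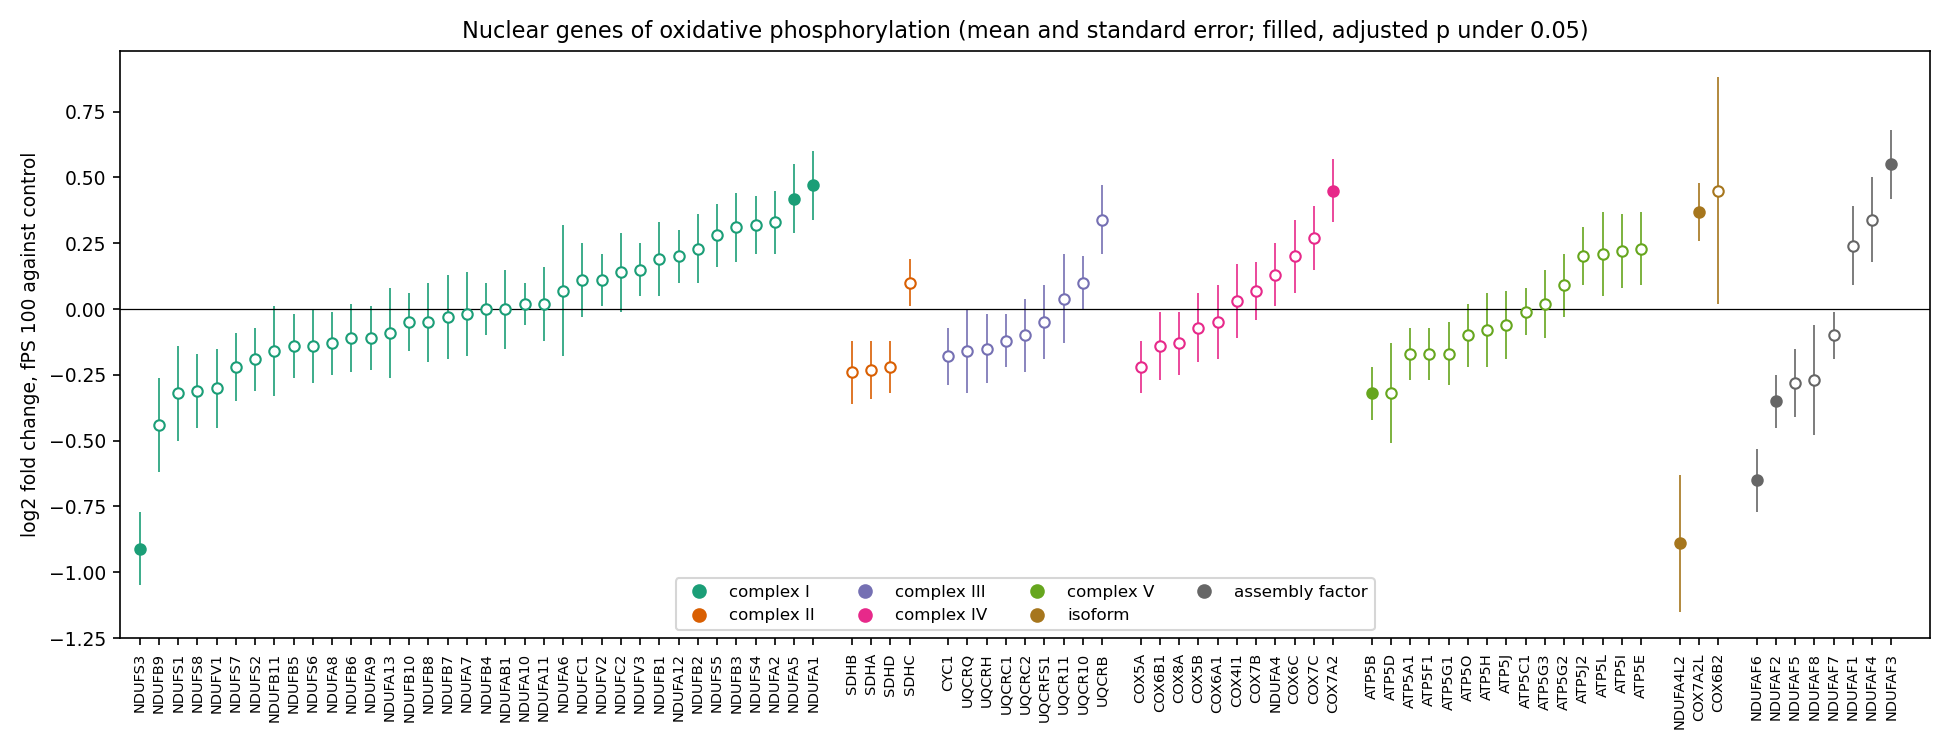
Log2 fold change of nuclear genes at fPS 100 against control (vertical axis) for subunits of complexes I to V, isoforms and assembly factors, each point with its standard error; filled points had an adjusted p under 0.05. NDUFS3 lies lowest of the genes drawn at −0.91 and NDUFAF3 highest at 0.55, and all points of complexes II and III are open.

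Complex I, the NADH dehydrogenase through which electrons from NADH enter the chain, had 2 of 36 tested nuclear subunits up, NDUFA1 and NDUFA5, and 1 down, NDUFS3, at fPS 100. NDUFS3, a core subunit of the arm that faces the matrix (chromosome 11, 47579074 to 47584562 on GRCh38.p14), was at 140.5, 183 and 129 CPM in control, 91.8, 89.3 and 108 CPM in fPS 25, and 71.7, 87.3 and 81.0 CPM in fPS 100. All 6 libraries with plastic lay below all 3 controls, and no fPS 100 library reached any fPS 25 library. The log2 fold change was −0.91 ± 0.14 (SE; adjusted p = 5.68e-04) at fPS 100 and −0.65 ± 0.14 (SE; adjusted p = 0.0218) at fPS 25. The call at fPS 25 ended without control replicate 2 (0.0728), fPS 25 replicate 1 (0.110) or fPS 25 replicate 2 (0.118). The difference between the concentrations was −0.27 ± 0.14 (SE; adjusted p = 0.223), which was not called. RefSeq places no other gene over NDUFS3.

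NDUFA5, an accessory subunit of the same arm (chromosome 7, 123536997 to 123601651), was at 40.0, 36.2 and 36.1 CPM in control, 58.1, 50.4 and 57.4 CPM in fPS 25, and 52.9, 57.7 and 39.9 CPM in fPS 100. The fPS 25 libraries lay above all controls, and in fPS 100 replicate 3 stayed within the control range. The gene rose by edgeR at fPS 25 (0.56 ± 0.13 SE, adjusted p = 0.0319) and at fPS 100 (0.42 ± 0.13 SE, adjusted p = 0.0291), and was at −0.14 between the concentrations (adjusted p = 0.525). The fPS 25 call ended when any control or fPS 25 library was left out (adjusted p = 0.0656 to 0.131). At fPS 100 it ended without control replicate 2 (0.0777), control replicate 3 (0.0694), fPS 100 replicate 1 (0.0790) or fPS 100 replicate 2 (0.111) and with only the compared groups (0.0683), and without fPS 100 replicate 3 the adjusted p was 8.64e-04. With the replicate block the fPS 25 value was 0.0654. ASB15 overlaps NDUFA5.

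NDUFA1, a small subunit of the membrane arm (chromosome X, 119871832 to 119876662), was at 98.0, 105 and 74.7 CPM in control, 96.1, 95.8 and 112 CPM in fPS 25, and 114, 138 and 132 CPM in fPS 100. All fPS 100 libraries lay above all others, while control and fPS 25 overlapped. Its log2 fold change was 0.47 ± 0.13 (SE; adjusted p = 0.0186) at fPS 100 and 0.13 at fPS 25 (adjusted p = 0.608), and the former was lost without fPS 100 replicate 2 (0.0636). Complex I as a whole had a median of −0.01 over 36 tested subunits, with 16 of 36 above 0. NDUFA12, an accessory subunit, at 0.39 (adjusted p = 0.0510) came next to the threshold at fPS 25 and was chosen after its value was seen.

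The 300 bases around the start sites of these 3 genes in RefSeq (GRCh38.p14, 250 before the start to 50 after) are shown because they hold motifs of factors known to act on nuclear genes of respiration. Capitals mark GCGCANGCG, the motif of NRF1, CCGGAAG, that of the ETS family to which GABP belongs, and AAGATGGCG, that of YY1, on either strand. For NDUFA5 the start of 3 listed that holds a motif is shown.
NDUFS3 (chr11:47578824-47579123, plus strand): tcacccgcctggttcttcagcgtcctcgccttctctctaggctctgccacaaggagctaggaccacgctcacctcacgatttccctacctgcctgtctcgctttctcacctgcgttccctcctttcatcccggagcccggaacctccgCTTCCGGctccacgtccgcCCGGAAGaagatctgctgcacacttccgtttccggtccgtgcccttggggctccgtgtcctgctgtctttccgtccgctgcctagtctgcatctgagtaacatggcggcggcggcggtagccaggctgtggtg
NDUFA1 (chrX:119871582-119871881, plus strand): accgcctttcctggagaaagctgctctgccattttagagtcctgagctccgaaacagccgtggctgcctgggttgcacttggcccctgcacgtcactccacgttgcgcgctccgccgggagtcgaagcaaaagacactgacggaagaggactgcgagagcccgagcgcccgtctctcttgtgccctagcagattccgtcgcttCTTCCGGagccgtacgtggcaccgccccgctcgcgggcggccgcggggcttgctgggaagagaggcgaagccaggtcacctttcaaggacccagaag
NDUFA5 (chr7:123557769-123558068, minus strand): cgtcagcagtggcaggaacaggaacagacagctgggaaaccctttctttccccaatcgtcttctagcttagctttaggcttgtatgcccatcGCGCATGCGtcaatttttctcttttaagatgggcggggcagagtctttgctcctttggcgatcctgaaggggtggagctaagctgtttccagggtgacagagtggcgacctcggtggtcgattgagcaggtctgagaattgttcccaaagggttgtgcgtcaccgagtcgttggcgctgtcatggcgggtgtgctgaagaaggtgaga
Of 63 nuclear subunit genes with a listed promoter, out of 76, 34.9% held the NRF1 motif, 31.7% the ETS motif and 14.3% the YY1 motif in at least 1 promoter, against 9.02%, 12.2% and 2.14% of all 27305 genes with promoters of this length. The 27305 genes were not matched to the subunits in kind, level or number of listed starts, so these shares are not like with like. The fallen NDUFS3 has the ETS motif 2 times, in both orientations, and the risen NDUFA1 has it 1 time. None of these motifs was found at any listed start of COX7A2, COX7A2L, NDUFA4L2, NDUFAF2 or NDUFAF3. Of the other called nuclear genes, the starts of NDUFAF6 were left out of this listing, and ATP5B had no listed promoter. The genes shown were picked for their matches, so the motifs are not a feature of the called genes as a set. A match is a description of letters, and binding was not measured.

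**Figure D2:**
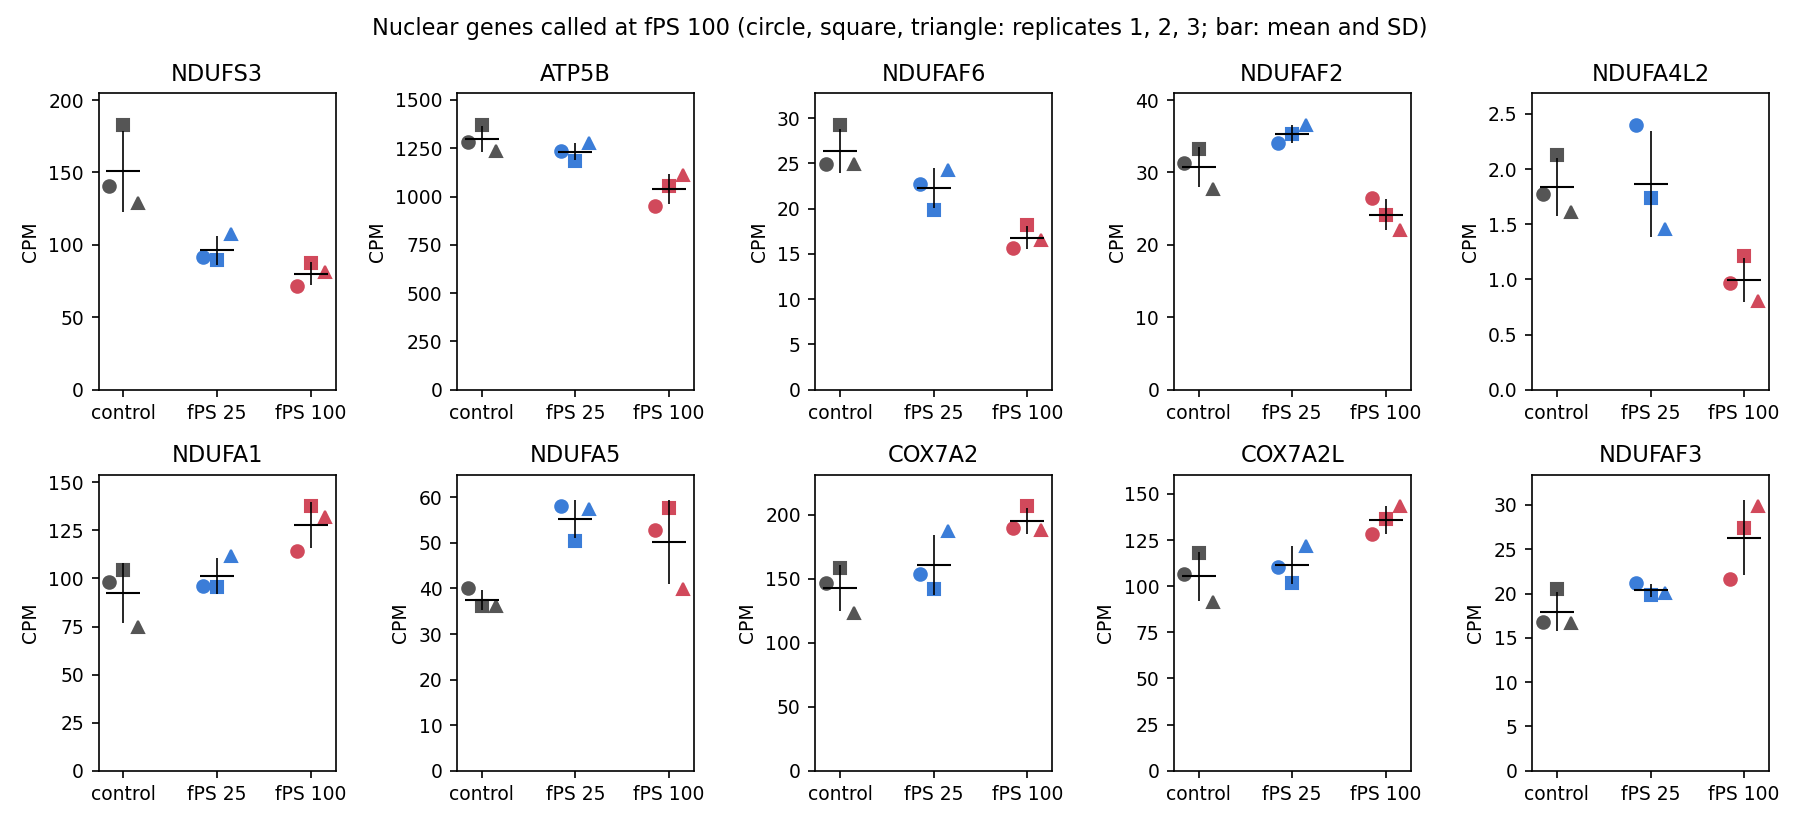
CPM (vertical axis, from 0) of the 10 nuclear genes called at fPS 100 in the 3 control, 3 fPS 25 and 3 fPS 100 libraries; circles, squares and triangles are replicates 1, 2 and 3, and bars give the mean and SD. NDUFS3 steps down from 151 CPM in control to 96.3 and 80.0 CPM, and NDUFA5 is the gene whose fPS 100 libraries reach into the control range.

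Assembly factors of complex I, which build the complex without staying in it, gave 3 of the 10 calls: of 8 NDUFAF genes tested, 1 rose and 2 fell. That is 37.5% called, where 30.0% of all genes were, so the count says nothing particular to them. NDUFAF6, needed for an early step of assembly, was at 25.0, 29.2 and 24.9 CPM in control, 22.7, 19.8 and 24.3 CPM in fPS 25, and 15.7, 18.2 and 16.5 CPM in fPS 100. The groups did not overlap, with fPS 25 between the other two. It fell by edgeR at fPS 100 against control (−0.65 ± 0.12 SE, adjusted p = 0.00171) and against fPS 25 (−0.41 ± 0.12 SE, adjusted p = 0.0386), and was at −0.24 ± 0.11 (SE; adjusted p = 0.259) at fPS 25. The call between the concentrations ended without control replicate 1 (0.0632), fPS 25 replicate 1 (0.129), fPS 25 replicate 3 (0.157) or fPS 100 replicate 1 (0.109) and with the replicate block (0.0871). Other genes overlap NDUFAF6, among them CCNE2 and TP53INP1, and whether reads were counted by strand is not known.

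NDUFAF2, an assembly chaperone of complex I (chromosome 5, 60945205 to 61153026), was at 31.4, 33.2 and 27.7 CPM in control, 34.1, 35.3 and 36.5 CPM in fPS 25, and 26.4, 24.1 and 22.1 CPM in fPS 100. Here fPS 25 lay above control and fPS 100 below it, with no overlap. The fall was −0.55 ± 0.10 (SE; adjusted p = 0.00528) between the concentrations and −0.35 ± 0.10 (SE; adjusted p = 0.0262) against control, and fPS 25 against control was at 0.20 ± 0.10 (SE; adjusted p = 0.305). The call against control ended without control replicate 1 (0.0855), control replicate 2 (0.0866) or fPS 100 replicate 2 (0.0697), with no filter (0.0623), with only the compared groups (0.0772) and with the replicate block (0.0530). NDUFAF3, which works in the early assembly of the matrix arm (chromosome 3, 49020452 to 49023495), was at 16.8, 20.5 and 16.6 CPM in control, 21.2, 19.9 and 20.0 CPM in fPS 25, and 21.6, 27.4 and 29.9 CPM in fPS 100. All fPS 100 libraries exceeded all others, and the rise was 0.55 ± 0.13 (SE; adjusted p = 0.00976) at fPS 100 and 0.18 at fPS 25 (adjusted p = 0.486). DALRD3 overlaps NDUFAF3, so without the strand their reads cannot be told apart.

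Complex II, the succinate dehydrogenase that links the chain to the citric acid cycle, had no call in 4 subunits by edgeR, 1 being at an unadjusted p under 0.05. SDHA, its flavoprotein, was at −0.23 (adjusted p = 0.145), SDHB at −0.24, SDHD at −0.22 and SDHC, a membrane anchor, at 0.10. SDHA fell by edgeR without fPS 100 replicate 3, at −0.35 (adjusted p = 0.0100), in a fit where 19.0% of all genes fell. Complex III, which passes electrons from ubiquinol to cytochrome c, had no call in 9 subunits by edgeR, again with 1 at an unadjusted p under 0.05 and a median of −0.10. UQCRB, a subunit of its ubiquinone site, had 188, 208 and 172 CPM in control, 193, 201 and 242 CPM in fPS 25, and 255, 265 and 199.6 CPM in fPS 100, with replicate 3 of fPS 100 among the controls. UQCRB was at 0.34 (adjusted p = 0.0679) with all libraries. It rose without fPS 100 replicate 3, at 0.46 (adjusted p = 0.00722), in a fit where 18.9% of all genes rose. In SDHA and UQCRB that library lay nearest control within its group, so leaving it out depends on the values tested. Other nuclear genes, among them NDUFS4 and NDUFB9, were also newly called in that fit.

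Complex IV, cytochrome c oxidase, which hands the electrons to oxygen, had 1 of 11 tested subunits up and none down by edgeR, with 2 at an unadjusted p under 0.05. COX7A2, a nuclear subunit with tissue isoforms (chromosome 6, 75237675 to 75250298), was at 146, 158 and 123 CPM in control, 154, 142 and 187 CPM in fPS 25, and 189.9, 207 and 188 CPM in fPS 100. All fPS 100 libraries lay above all others, and the rise was 0.45 ± 0.12 (SE; adjusted p = 0.0159), against 0.17 at fPS 25 (adjusted p = 0.452). Without control replicate 3 the adjusted p was 0.0505 and without fPS 100 replicate 2 it was 0.0538. COX7A2L, also named SCAF1, a related protein that joins complexes III and IV into supercomplexes (chromosome 2, 42335559 to 42368957), was at 107, 118 and 91.3 CPM in control, 111, 101 and 122 CPM in fPS 25, and 128, 137 and 143 CPM in fPS 100. All fPS 100 libraries again lay above all others. It rose at fPS 100 by edgeR (0.37 ± 0.11 SE, adjusted p = 0.0249), a call lost without control replicate 1 (0.0669), control replicate 3 (0.0724) or fPS 100 replicate 2 (0.0586), with only the compared groups (0.0531) and with the replicate block (0.0595).

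Where complex IV has alternative subunits, counts were found mainly for the general forms. COX4I2, COX6A2, COX7B2 and COX8C had 0 counts in every library, which allows up to 3 counts or 0.102 to 0.183 CPM, and COX7A1 had 2 counts in all. A count of 0 in this table need not mean absence, since the ADP/ATP carrier SLC25A6 was at 0 in every library and SURF1, a general assembly factor of complex IV, at 0 to 0.0889 CPM. The general forms COX4I1, COX6A1 and COX8A were at 405 ± 70.6, 312 ± 50.5 and 298 ± 48.1 CPM in control (SD, n = 3), and none was called. COX6B2, known from testis, stayed under 1 CPM in every library. NDUFA4, now counted to complex IV, was at 264, 281 and 243 CPM in control, 267, 247 and 323 CPM in fPS 25, and 284, 318 and 264 CPM in fPS 100, groups that overlap, and at 0.13 ± 0.12 (SE; adjusted p = 0.412) at fPS 100. NDUFA4L2, its relative, known as a target of hypoxia-inducible factor (chromosome 12, 57234903 to 57240762), was at 1.78, 2.13 and 1.61 CPM in control, 2.40, 1.73 and 1.46 CPM in fPS 25, and 0.969, 1.21 and 0.804 CPM in fPS 100. The 3 fPS 100 libraries were the lowest of the 9, at log2 fold changes of −0.89 ± 0.26 (SE; adjusted p = 0.0244) against control and −0.89 ± 0.26 (SE; adjusted p = 0.0450) against fPS 25, while fPS 25 was at 0.00 (adjusted p = 0.996). The call against control was lost without control replicate 1 (0.0568), control replicate 2 (0.0870) or fPS 100 replicate 1 (0.0631). That against fPS 25 was lost without control replicates 1 or 3, fPS 100 replicates 1 or 3 or any fPS 25 library (adjusted p = 0.0502 to 0.179), with upper-quartile scaling (0.0511), limma-voom (0.0588), only the compared groups (0.0722) and the replicate block (0.0602). SHMT2 overlaps NDUFA4L2, and the 324 counts over all libraries make it the least counted of the called genes.

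Complex V, the ATP synthase, had 1 of 15 subunits down and none up by edgeR, the 1 being also the only one at an unadjusted p under 0.05. ATP5B, the catalytic beta subunit (chromosome 12, 56638175 to 56645984), was at 1283, 1369 and 1237 CPM in control, 1237, 1186 and 1275 CPM in fPS 25, and 953, 1052 and 1110.1 CPM in fPS 100. Every fPS 100 library lay below every other, and the fall was −0.32 ± 0.10 (SE; adjusted p = 0.0277) at fPS 100, against −0.07 at fPS 25 (adjusted p = 0.718). It was lost without control replicate 1 (0.0780), control replicate 2 (0.0812), fPS 25 replicate 1 (0.0542), fPS 100 replicate 1 (0.103) or fPS 100 replicate 2 (0.0669), with no filter (0.0801), with only the compared groups (0.0833) and with the replicate block (0.0728). BAZ2A overlaps ATP5B. ATP5J2, a membrane subunit, was at 0.40 at fPS 25 (adjusted p = 0.0534), and it shares exons with the readthrough gene ATP5J2-PTCD1. That gene ranged from 0 to 61.1 CPM, with the groups overlapping, and the sum of both was 231, 229.9 and 180.4 CPM in control and 248, 232 and 260.4 CPM in fPS 25.

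Some essential subunits were counted at very low levels in every library. NDUFA3 had 50 counts in all 9 libraries together, NDUFA6 386, NDUFS1 768 and UQCRC2 1857. How reads that match several places or overlapping genes were counted is not stated, so these values cannot be read as expression levels. In the authors' length-scaled values, NDUFA3 had a mean of 0.394 in control and UQCRC2 of 2.997, where the 76 nuclear subunits without isoforms had a median of 142. On that scale per length the median was 105 in complex I, 101 in complex II, 103 in complex III, 488 in complex IV and 185 in complex V. The 13 mitochondrial transcripts had a median of 2384, from 453 for ND5 to 6166 for COX2.

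The 13 mitochondrial transcripts differed widely among libraries of the same group. None was called in any comparison by edgeR, with limma-voom or with DESeq2, and 1, 2 and 0 of 13 were at an unadjusted p under 0.05 for fPS 100 against control, fPS 25 against control and fPS 100 against fPS 25. All 13 were estimated above control at both concentrations, with medians of 0.34 at fPS 100 and 0.29 at fPS 25, and the median between the concentrations was 0.07. The median at fPS 100 was 0.12 without fPS 100 replicate 1 and 0.21 without control replicate 2, and that at fPS 25 was 0.15 without control replicate 2. Between the concentrations it turned to −0.19 without fPS 100 replicate 1, −0.03 with limma-voom and −0.06 in the authors' log2 values, and was 0.31 without fPS 100 replicate 3. Their share of all counts was 3.42% (95% Wilson interval 3.42 to 3.43), 2.32% (2.32 to 2.33) and 3.53% (3.52 to 3.54) in control. It was 3.61% (3.60 to 3.62), 4.26% (4.25 to 4.27) and 3.72% (3.71 to 3.73) in fPS 25, and 5.02% (5.01 to 5.02), 4.24% (4.23 to 4.25) and 1.92% (1.91 to 1.92) in fPS 100. Control replicate 2 and fPS 100 replicate 3 were low and the other 2 fPS 100 libraries high, so that the fPS 100 group held both the highest and the lowest of the 9 shares. The fPS 100 totals include nuclear ribosomal RNA that the other totals lack, which lowers these shares beside those of control and fPS 25.

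**Figure D3:**
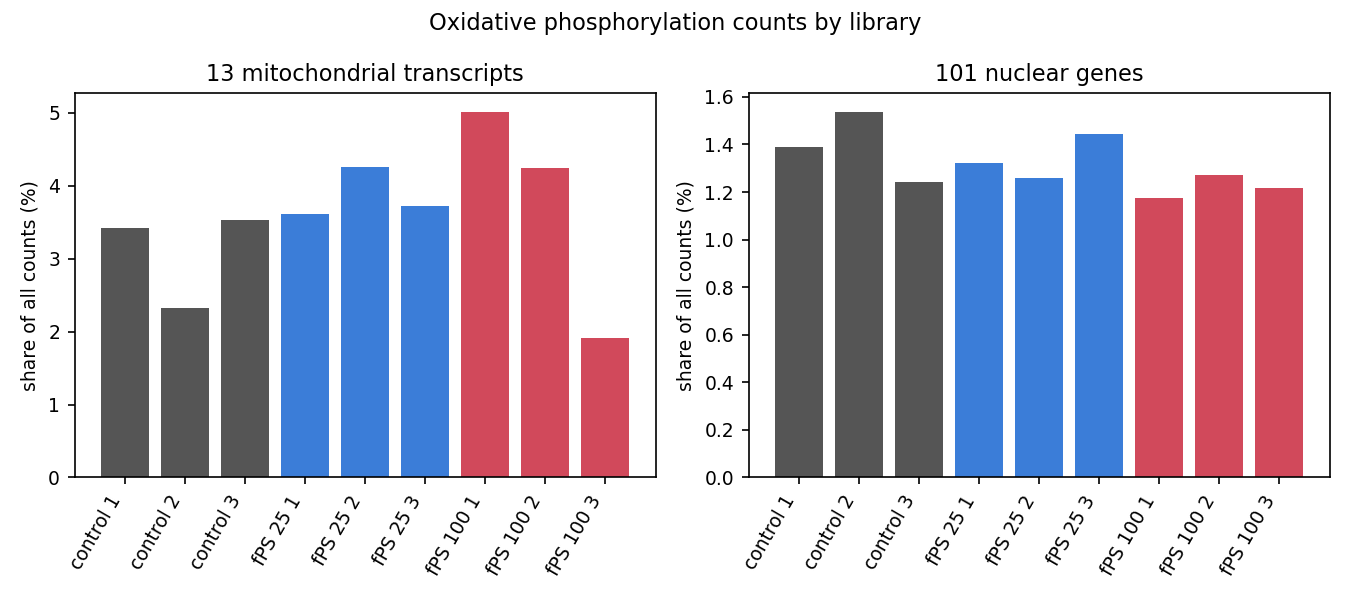
Share of all counts (vertical axes, percent) taken by the 13 mitochondrial transcripts (left) and by the 101 nuclear genes (right) in each library; bars are single libraries. The mitochondrial share runs from 1.92% in fPS 100 replicate 3 to 5.02% in fPS 100 replicate 1, and the nuclear share from 1.17% to 1.54%. Totals of the fPS 100 libraries include 6.06% to 8.48% nuclear ribosomal RNA and those of the other libraries 0, so the denominators are unlike.

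Of the transcripts for complex I, ND1 was at 1392, 919 and 1297 CPM in control, 1479.5, 1801 and 1513 CPM in fPS 25, and 2057, 1726 and 854 CPM in fPS 100, and ND2 at 1977, 1309.8 and 1909 CPM in control, 2389, 2915 and 2556 CPM in fPS 25, and 2909.6, 2395 and 1259 CPM in fPS 100. ND3, also a subunit of the membrane arm, was at 661, 656 and 576 CPM in control, 756, 762 and 846 CPM in fPS 25, and 879, 819.5 and 632 CPM in fPS 100. In all 3 transcripts every fPS 25 library lay above every control. The same held for ND4, CYTB and COX3, given below, while in the remaining transcripts fPS 25 and control overlapped. The share of all genes with such a separation was not taken. In ND1 and ND2 fPS 100 replicate 3 was the lowest of the 9 libraries, and in ND3 control replicate 3 was. ND4 was at 4082, 2631 and 4136 CPM in control, 4203, 4811 and 4236 CPM in fPS 25, and 6353, 5478 and 2446 CPM in fPS 100, and ND4L, read from the same RNA, at 434, 323 and 529 CPM in control, 485, 538 and 424 CPM in fPS 25, and 638, 557 and 322 CPM in fPS 100. ND5 was at 1056, 604 and 1130.3 CPM in control, 1156, 1450.1 and 1102 CPM in fPS 25, and 1889, 1358 and 645 CPM in fPS 100. In these 3 the highest library was fPS 100 replicate 1, and fPS 100 replicate 3 and control replicate 2 were the lowest. ND6, the only protein transcript of the light strand, was at 450.0, 303 and 367 CPM in control, 369, 459 and 442 CPM in fPS 25, and 691, 596 and 308 CPM in fPS 100. It is read from the strand opposite to the others, and human ND6 RNA is known to lack a poly(A) tail. Control replicate 2 was its lowest library and fPS 100 replicate 1 its highest.

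CYTB, the cytochrome b of complex III, was at 1572, 857 and 1543 CPM in control, 1787, 2322 and 1833 CPM in fPS 25, and 3032, 2413 and 981 CPM in fPS 100. Its libraries spanned the widest range of the 13, with the highest 3.54 times the lowest. Control replicate 2 was the lowest and fPS 100 replicate 1 the highest. Of the catalytic core of complex IV, COX1 was at 9111, 6573 and 9819 CPM in control, 9208, 11259 and 9629.9 CPM in fPS 25, and 14539.7, 13201 and 6191 CPM in fPS 100. COX2 was at 4578, 3411 and 4241 CPM in control, 4514, 5131 and 4955 CPM in fPS 25, and 6364, 5804 and 3119.8 CPM in fPS 100. COX3 was at 4149, 2961 and 4279 CPM in control, 4494, 5359 and 5031 CPM in fPS 25, and 6124, 5731 and 2502 CPM in fPS 100. All 3 had fPS 100 replicates 1 and 2 above every other library and fPS 100 replicate 3 lowest. For complex V, ATP6, a subunit of the proton channel, was at 3474, 2319.5 and 3258 CPM in control, 3382, 3886 and 3575 CPM in fPS 25, and 4654, 4143 and 1929 CPM in fPS 100. ATP8, a small subunit beside it, was at 462, 343 and 453 CPM in control, 435, 482 and 429 CPM in fPS 25, and 529, 497 and 290.1 CPM in fPS 100. Both had the same highest and lowest libraries as the subunits of complex IV. Of the 13, ND3 had the narrowest range, with the highest library 1.53 times the lowest, and ATP8 came next at 1.82 times.

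Without fPS 100 replicate 3, 12 of 13 mitochondrial transcripts rose at fPS 100 against control by edgeR, in a fit where 18.9% of all genes rose, and the median was 0.64. That library was the lowest of its group in these same transcripts, so leaving it out depends on the values tested, and the adjusted p-values that follow only show how far 1 library decides the call. Each of the other alternatives, and the fit with all libraries, called 0 of 13. CYTB was then at 1.04 (adjusted p = 0.00479), ND6 at 0.79 (adjusted p = 0.00238), COX1 at 0.71 (adjusted p = 0.00680) and ND3 at 0.43 (adjusted p = 0.00446). The exception was ATP8, at 0.29 (adjusted p = 0.0816). In the same fit 10 nuclear genes rose and 10 fell where 19.0% of the 14931 genes tested fell. Without that library ND2 and ND3 also rose at fPS 25 against control, at 0.60 and 0.32 (adjusted p = 0.0283 and 0.0304), where 6.60% of all genes rose. They also rose with control and fPS 25 alone in the fit (adjusted p = 0.0376 and 0.0475), where 5.54% did. ND6 rose at fPS 100 against fPS 25 without it, at 0.60 (adjusted p = 0.0197), where 8.59% of all genes rose.

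**Figure D4:**
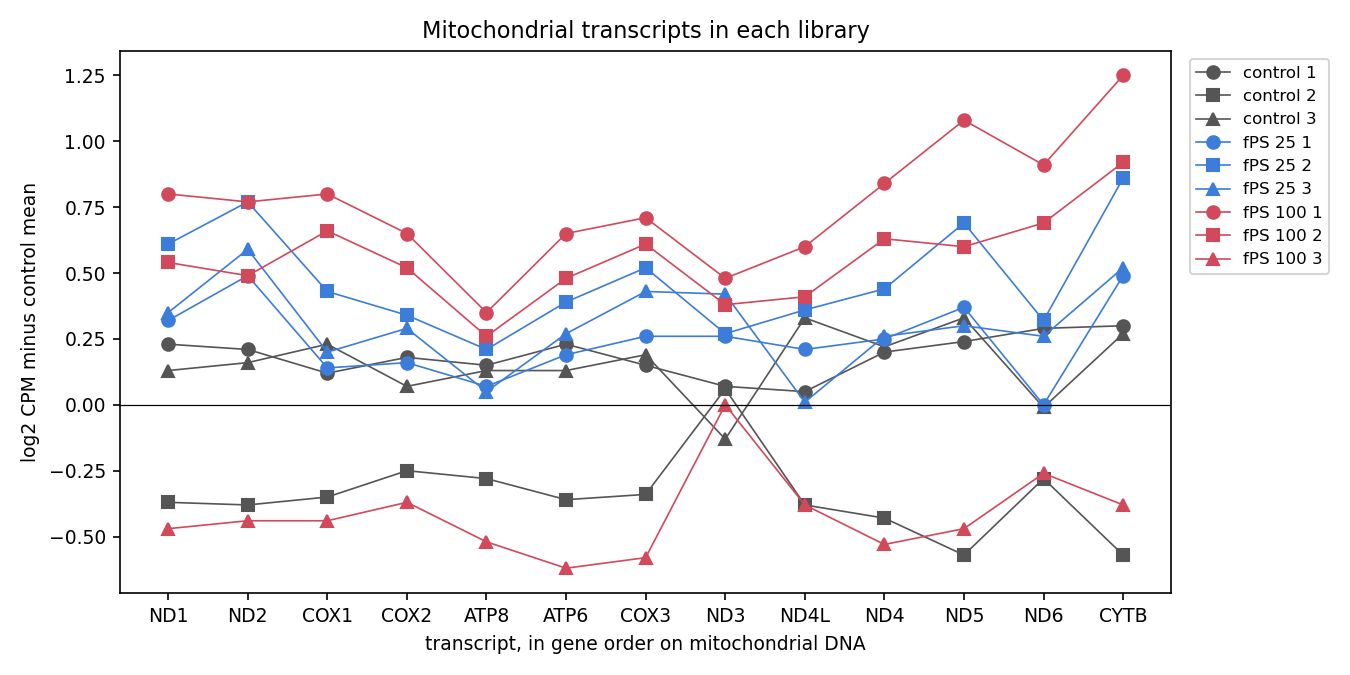
Log2 CPM of each of the 13 mitochondrial transcripts minus the mean of the 3 controls (vertical axis), in gene order on mitochondrial DNA, with a line for each of the 9 libraries. The lines of fPS 100 replicates 1 and 2 lie above 0 throughout, and those of fPS 100 replicate 3 and control replicate 2 lie below it at every transcript but ND3.

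The share of each transcript in the mitochondrial sum was also compared between libraries. COX1 took 26.3% to 29.5% of the mitochondrial protein counts in every library, and ND4 11.3% to 12.5%. CYTB took 3.69% in control replicate 2 and 4.57% in fPS 100 replicate 3, against 4.60% to 5.99% in the other 7. ND3 took 2.83% and 2.94% in those 2 libraries, against 1.72% to 2.31% elsewhere. ND2 took 6.89% to 7.08% in fPS 25, above the 5.64% to 5.92% of control and the 5.36% to 5.86% of fPS 100, with no overlap. Such separation was not particular to ND2. COX3 took 12.97% to 13.76% in fPS 25, above the 12.42% to 12.76% of control and the 11.65% to 12.82% of fPS 100. ATP6 took 8.98% to 9.26% in fPS 100, below every other library.

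Neighbouring mitochondrial genes share letters, shown here because reads within them belong to both genes. The sequences are from the GENCODE transcripts on GRCh38, plus strand, with the shared bases in capitals and 12 bases of each gene beside them.
ATP8 and ATP6 (chrM:8515-8584): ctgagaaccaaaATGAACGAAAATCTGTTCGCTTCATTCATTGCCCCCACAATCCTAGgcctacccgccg
ND4L and ND4 (chrM:10748-10778): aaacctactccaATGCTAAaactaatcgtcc
The 46 shared bases are 22.2% of the 207 bases of ATP8, and the 7 shared bases are 2.36% of the 297 bases of ND4L. How such reads were assigned is unknown, so the values of ATP8 in particular are uncertain.

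Nuclear subunits often shared an order of the libraries, 88.0% of those tested in control, 77.3% in fPS 25 and 52.0% in fPS 100. In control, 66 of 75 tested subunits were highest in replicate 2 and lowest in replicate 3, an order found in 27.8% of all genes tested. Median log2 differences of the subunits from the control mean were 0.01, 0.21 and −0.21 in control, −0.09, −0.15 and 0.09 in fPS 25, and −0.20, 0.04 and 0.04 in fPS 100. Each complex had the sign of that median in control replicates 2 and 3, complex I at 0.23 and −0.24 and complex V at 0.20 and −0.20. In fPS 25, 58 of 75 were highest in replicate 3 and lowest in replicate 2, against 20.6% of all genes. In fPS 100, 39 of 75 were highest in replicate 3 and lowest in replicate 1, against 24.3% of all genes. Another 18 were highest in replicate 2 and lowest in replicate 3, against 20.3% of all genes. The order with replicate 2 highest and replicate 1 lowest held for 17 of 75, against 7.79% of all genes. RNAs without a poly(A) tail, a list of 5, summed to 283, 466 and 951 CPM in control, 1528, 995 and 339.9 CPM in fPS 25, and 252, 289 and 328 CPM in fPS 100. The highest sum in control was in replicate 3, which had the lowest subunit median, and the lowest sum in fPS 25 was in replicate 3, which had the highest. In fPS 100 the lowest sum was in replicate 1, which had the lowest subunit median. The part of this in the subunit levels was not tested. The mitochondrial transcripts stood at 0.20, −0.36 and 0.16 in control, 0.25, 0.43 and 0.29 in fPS 25, and 0.77, 0.54 and −0.44 in fPS 100. Within each group, the library with the highest mitochondrial median was thus never the one with the highest nuclear median.

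**Figure D5:**
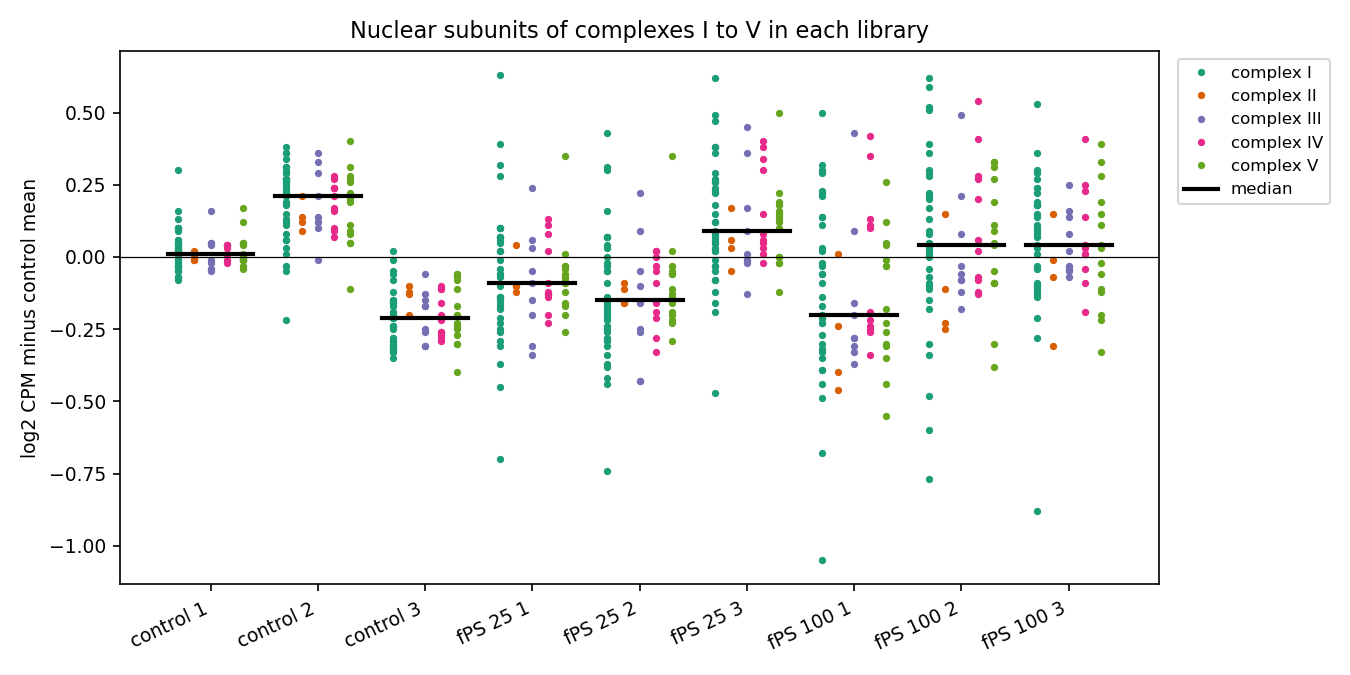
Log2 CPM minus the mean of the 3 controls (vertical axis) for the 75 tested nuclear subunits in each library, coloured by complex, with the median as a black bar. Control replicates 2 and 3 lie at medians of 0.21 and −0.21, on opposite sides of the medians of all other libraries.

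Transcript length moved with these differences. Between control replicates 2 and 3, the median log2 difference over all genes went from 0.12 for those with median GENCODE transcripts under 1000 bases to −0.36 for those of 5000 or more. The nuclear subunits, at a median length of 703 bases, were at 0.42. Between replicates 3 and 2 of fPS 25 the values were 0.07, −0.16 and 0.23 in the same order. Lengths were found for 84.3% of all genes tested and all 75 subunits. The part of length in the differences was not tested.

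Genes that build the complexes without being subunits were taken from lists, and their counts stand beside 15.2% of all genes up and 14.8% down at fPS 100, or 30.0% called. Of 12 tested assembly factors of complex I outside the NDUFAF genes, 2 rose and 2 fell at fPS 100 (33.3% called). FOXRED1 was at −0.95 ± 0.10 (SE; adjusted p = 5.56e-05), ECSIT at −0.76 ± 0.11 (SE; adjusted p = 4.10e-04) and TMEM261, also named DMAC1, at 0.73 ± 0.13 (SE; adjusted p = 0.00134). Of 6 factors of complex III, 3 rose and 1 fell. UQCC3, which stabilises cytochrome b, went from 7.89 ± 1.80 CPM in control to 20.2 ± 1.89 CPM in fPS 25 and 30.0 ± 2.77 CPM in fPS 100 (SD, n = 3 each), with log2 fold changes of 1.36 and 1.92. BCS1L, which inserts the Rieske protein of complex III, was at 0.68 ± 0.13 (SE; adjusted p = 0.00252) and TTC19 at 0.42 ± 0.09 (SE; adjusted p = 0.00409). Of 23 factors of complex IV, 4 rose and 5 fell (39.1% called), with PET117 at 1.10 ± 0.13 (SE; adjusted p = 1.22e-04), the haem A synthase COX15 at −0.63 ± 0.09 (SE; adjusted p = 4.05e-04) and COX19 at −0.77 ± 0.14 (SE; adjusted p = 0.00183). ATPAF1, an assembly factor of complex V, rose (0.31 ± 0.10 SE, adjusted p = 0.0397), and 2 others of that list did not pass.

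Beside the chain, 3 of 18 genes of the citric acid cycle and pyruvate dehydrogenase fell at fPS 100 and none rose by edgeR, with a median of −0.18 and 9 at an unadjusted p under 0.05. The 16.7% that fell is near the 14.8% of all genes that did. Called shares of the lists that follow were 20.0% for RNA handling, 38.5% for DNA maintenance, 27.3% for chaperones and proteases, 33.3% for carriers and 14.3% for regulators, beside 30.0% of all genes. The 3 that fell in the citric acid cycle list were DLAT at −0.42 ± 0.07 (SE; adjusted p = 0.00183), the citrate synthase CS at −0.52 ± 0.10 (SE; adjusted p = 0.00201) and the fumarase FH at −0.34 ± 0.08 (SE; adjusted p = 0.00943). At fPS 25 their log2 fold changes were 0.08, −0.04 and 0.06, none called. Of 25 genes of mitochondrial transcription and RNA handling, 1 rose and 4 fell at fPS 100, with FASTKD1 at 0.43 ± 0.09 (SE; adjusted p = 0.00469), TFB1M at −0.34 ± 0.09 (SE; adjusted p = 0.0111) and the RNA-degrading enzyme PNPT1 at −0.31 ± 0.08 (SE; adjusted p = 0.0131). Of 13 genes of mitochondrial DNA maintenance, 1 rose, the thymidine kinase TK2 (1.23 ± 0.19 SE, adjusted p = 7.41e-04), and 4 fell, among them the nucleases DNA2 (−1.53 ± 0.15 SE, adjusted p = 4.15e-05) and MGME1 (−1.02 ± 0.11 SE, adjusted p = 8.19e-05). Mitochondrial chaperones and proteases had 3 of 11 down, the protease LONP1 at −1.23 ± 0.12 (SE; adjusted p = 4.98e-05), the chaperone HSPA9 at −0.48 ± 0.09 (SE; adjusted p = 0.00288) and TRAP1 at −0.40 ± 0.13 (SE; adjusted p = 0.0381). Of 9 carriers and pores, UCP2, an uncoupling protein relative, rose (1.22 ± 0.27 SE, adjusted p = 0.00551) and MPC1, of the pyruvate carrier, and the ADP/ATP carrier SLC25A5 fell (−0.45 and −0.31). Of 7 regulators of mitochondrial biogenesis, 1 rose, GABPB1, a subunit of GABP (0.48 ± 0.12 SE, adjusted p = 0.0132).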

How the data were processed

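RNA was measured in 9 libraries. Per the labels' protocols, poly(A) RNA was selected and libraries were made with the NEBNext Ultra II RNA kit. Per the submitters' processing notes, bcl2fastq and the build GRCh38.p14 were used. No aligner, counting program, annotation release or strand setting is given in the sources used here. Deposited by the authors was a table of raw counts per gene row, the base of every test. They also deposited log2 values per sample, log2 of 1 plus a value scaled for length and depth, used for levels per length and 1 alternative.

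The rows of a symbol were summed (58173 rows, 52402 symbols). Of the 101 nuclear genes, 79 matched RefSeq by symbol and 22 by synonym; 7 of the 114 genes stood on more than 1 row. In edgeR 4.0.16 under R 4.3.3, filterByExpr selected the genes (minimum count 10, minimum total 15), TMM scaled the libraries, and 1 robust quasi-likelihood model by group took all 9. Tests were 2-sided, adjusted by Benjamini-Hochberg over 14637 genes, and called under 0.05; 6 residual degrees of freedom remained, with a biological coefficient of variation of 13.6%. Each SE is the size of the log2 fold change divided by √F. Intervals and floors (3 counts) cover counting error only, since reads are not independent molecules.

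Alternatives were other scalings and filters, a non-robust fit, limma-voom (limma 3.58.1), DESeq2 1.42.0, only the compared groups, the replicate block, each library left out, other library sizes, the largest row of a symbol and the authors' log2 values. The procedure was tested on simulated data. Genes were named by a rule: all 13 mitochondrial transcripts, up to 4 called genes with the smallest adjusted p per complex at fPS 100, up to 6 in each other comparison, isoforms at 1 CPM or more, and up to 3 per other list. The members, lists and rule were chosen with earlier results of these data known. UQCRB, the SDH genes, COX6B2, NDUFA12, ATP5J2 and the low-count subunits were added after their values were seen.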

Additional observations from a re-analysis of the deposited data

How the results depend on the processing

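Of 330 refits of a called nuclear gene under 22 alternatives, 274 kept the call and the direction, 56 kept the direction but missed the threshold, and 0 changed direction. NDUFS3, NDUFAF6 and NDUFAF3 at fPS 100 and NDUFAF2 between the concentrations passed in all 22. Counts of nuclear genes called at fPS 100 were 6 with only the compared groups and 4 (without fPS 100 replicate 2) to 20 (without fPS 100 replicate 3) with a library left out. At fPS 25 they were 4 with no filter, with DESeq2, with only the compared groups and with nuclear ribosomal RNA removed, and 0 to 4 with a library left out. Between the concentrations they were 1 to 3 with a library left out. With the replicate number as a block (replicate block), 7, 1 and 1 nuclear genes were called at fPS 100, at fPS 25 and between the concentrations. In their deviations from the group means, 0 of 9 same-numbered pairs correlated above 0.1 (−0.389 to 0.0317). Differently numbered pairs were not compared, so whether the numbers mark paired libraries was not decided. Mitochondrial transcripts called were 0 to 12 at fPS 100, 0 to 2 at fPS 25 and 0 to 1 between the concentrations with a library left out, each maximum without fPS 100 replicate 3, and 2 at fPS 25 with only the compared groups. All genes called at fPS 25 numbered 1237 with no filter, 1232 with DESeq2, 1511 with only the compared groups, 318 with the replicate block and 135 to 1946 with a library left out; between the concentrations they numbered 1018 to 2706 with a library left out. Mitochondrial counts were also taken as a percentage of nuclear member counts, in place of all counts. They were 227% in control, 289.6% in fPS 25 and 306% in fPS 100, with SDs of 68.7, 42.7 and 137. As a share of all counts the means were 3.09%, 3.86% and 3.72%. All counts of fPS 100 include 6.06% to 8.48% nuclear ribosomal RNA, against 0 in the other groups, so these means have unlike denominators. The order of fPS 25 and fPS 100 in them is therefore not to be read. The causes were not tested. With 3 libraries a group and spreads this wide in the mitochondrial transcripts, a missed threshold does not show that groups were alike.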
